A study of Mus musculus with 12 samples.

Results

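Splenic B cells of pBIC mice, a lymphoma model, were compared with splenic B cells of normal YC mice by RNA-seq. The comparison takes the 6 count tables marked pBIC and the 3 marked YC, which is 9 of the 12 libraries of the study, with 1 mouse per library. The other 3 libraries, from BIC mice, were not in the fit. YC mice (n = 3) carried a Cre-dependent yellow reporter and a Cre driven from the Cg1 locus (YFPstopF/+ Cg1Cre/+), and their B220+YFP+ cells were sorted. pBIC mice (n = 6) carried floxed p53, floxed Blimp1 and a Cre-dependent, constitutively active IKK2 with the same Cre (p53F/F Blimp1F/F IKK2castopF/stopF Cg1Cre/+), and their B220+GFP+ cells were sorted. Cg1Cre is thus shared by both groups, and the labels give neither the age nor the sex of the mice. B cells carry B220, an isoform of CD45, on their surface, and the Cg1 promoter is active in B cells that transcribe the constant region gene of IgG1, many of them in germinal centres. In the count tables pBIC 1, 2 and 3 are marked pBICh and pBIC 4, 5 and 6 are marked pBICl, and the sources used here do not say what h and l stand for.

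The labels name pBIC a model of activated B-cell-like diffuse large B-cell lymphoma (ABC-DLBCL). In this lymphoma type the NF-kB pathway is active, and B cells fail to complete the step from germinal centre cell to plasma cell. IKK2, encoded by Ikbkb, is the kinase that releases canonical NF-kB factors from their inhibitors, Blimp1, encoded by Prdm1, is the repressor that drives plasma cell differentiation, and p53, encoded by Trp53, arrests or kills cells with damaged DNA. B cells in a germinal centre express BCL6 and a set of migration genes, whereas resting B cells express IgD, CD23 and class II molecules for presenting antigen to T cells. A growing tumour cell makes more ribosomes, and the genes for ribosome assembly are well-known targets of MYC.

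The libraries held between 33127283 (YC 3) and 47067627 (pBIC 2) counts, with the mates of a read pair counted separately. The first principal component of all tested genes, with 42.4% of the variance, placed YC at -123 to -120 and pBIC at 32.2 to 84.3. The second, with 18.5%, set pBIC 1 (-99.6) and pBIC 6 (-97.5) apart from the other 4 pBIC libraries (25.1 to 70.8). The median SD of a gene between libraries was 0.255 on the scale of log2 CPM (counts per 1000000 counts) in YC and 0.577 in pBIC. All YC libraries, pBIC 3 and pBIC 6 had transcripts of Y-linked genes, while Xist was high in pBIC 2, 4 and 5. pBIC 1 was in neither set. The groups thus differed in these sex-linked transcripts, and the labels do not give the sex of the mice.

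**Figure D1:**
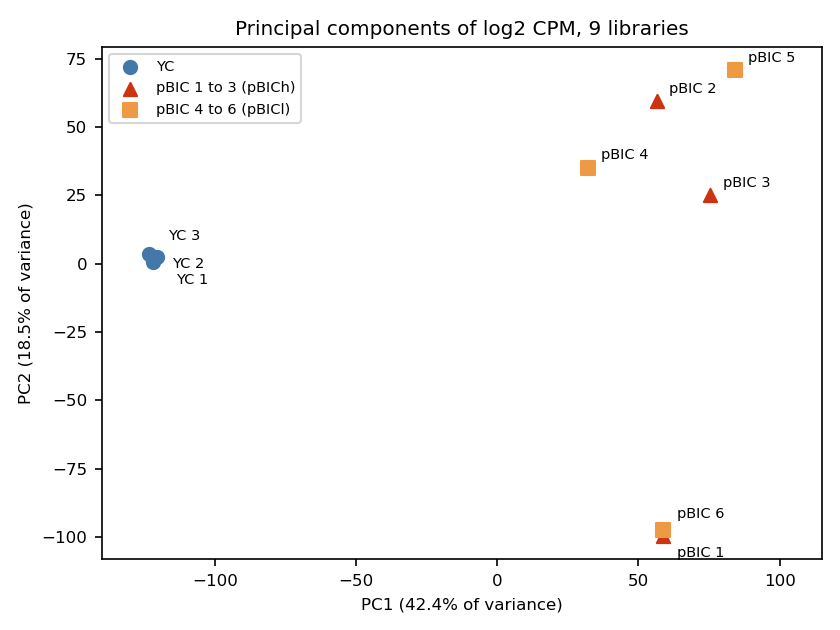
Principal components of log2 CPM over all genes tested. Each point is 1 library, by group and mark, with component 1 on the x axis and component 2 on the y axis. The 3 YC libraries sit together at the left, and pBIC 1 and pBIC 6 lie far below the other 4 pBIC libraries.

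The V genes of the immunoglobulin chains, which mark a B cell clone, were dominated by few genes in pBIC. The leading heavy-chain V gene took 6.86% to 8.89% of heavy-chain V counts in YC and 30.1% to 94.9% in pBIC. In pBIC 2 and pBIC 5 this was the same gene, Ighv2-9, with 92.2% (95% Wilson interval 92% to 92.5%) and 94.9% (94.7% to 95%), and the leading kappa V gene was Igkv19-93 in both, with 96.4% (96.3% to 96.6%) and 99.5% (99.5% to 99.6%). The intervals cover counting error only. pBIC 1 and pBIC 3 also shared a leading kappa V gene, Igkv12-44, with 62.6% and 92.7%, and Igkv19-93 took 33.2% in pBIC 1. In the other pBIC libraries the leading heavy-chain genes were Ighv5-4, Ighv2-6-8, Ighv1-56 and Ighv9-3. The labels give pBIC 2 and pBIC 5 as separate mice. Their counts differed by 128.6 chi-square units per gene, far more than sampling noise but the least of any pBIC pair, against 25.2 for YC 2 and YC 3, 95.9 for YC 1 and YC 2, and 95 for YC 1 and YC 3. Results were therefore also computed without either of them, and those of all pBIC against YC with their counts summed.

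Of 8 B cell markers, 3 fell (Pax5, Ptprc and Cd22) and none was at 0 in any library. Cd79a, a signalling chain of the B cell receptor, ran from 163 to 1171 CPM in pBIC and from 946 to 1158 CPM in YC, and Ms4a1, the gene for CD20, from 291 to 1539 CPM and from 1045 to 1617 CPM. Neither passed the test (edgeR adjusted p = 0.225 and 0.122). Without pBIC 1, 6 of the 8 markers fell, and without both pBIC 1 and pBIC 6 all 8 did. The 17 listed markers of macrophages and monocytes (16 tested) summed to 55.6 to 111 CPM in YC and 30.7 to 383 CPM in pBIC, highest in pBIC 6. In edgeR 2 of them fell and 0 rose, but their median log2 fold change was 1.61 (0.38 in pBICh and 2.24 in pBICl). DESeq2 called 4 of them higher and 2 lower. Markers of neutrophils (14 listed, 13 tested) summed to 309, 11.1 and 3.17 CPM in YC 1, 2 and 3 and to 6.52 to 89.6 CPM in pBIC. Erythroid markers (9 tested) summed to 555, 20.4 and 56 CPM and to 22 to 434 CPM, and T cell markers (16 tested) to 224 to 275 CPM and 97.2 to 228 CPM. In bulk RNA, fewer cells of a type and less RNA per cell cannot be told apart.

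The 3 engineered genes behaved differently from each other. Trp53 (ENSMUSG00000059552.13, chr11:69580359-69591873 of GRCm38) was at 139, 139 and 144 CPM in YC 1, 2 and 3 and at 16.4 to 31.3 CPM in pBIC, with a median of 24.2. It was low in all 6 pBIC libraries, and the groups did not overlap. The log2 fold change was -2.57 ± 0.19 (SE; edgeR quasi-likelihood test, adjusted p = 0.000112), and it was -2.60 for pBICh and -2.54 for pBICl. Ikbkb (ENSMUSG00000031537.15, chr8:22659212-22706589) was at 253, 243 and 213 CPM in YC and at 459 to 517 CPM in pBIC, median 489. All 6 pBIC libraries were above every YC library, and the gene rose by 1.05 ± 0.14 on the log2 scale (edgeR adjusted p = 0.00159). The counts do not separate transcripts of the IKK2 transgene from those of the resident gene. Prdm1 (ENSMUSG00000038151.13, chr10:44437177-44528501) was at 18.5, 18 and 19.6 CPM in YC and at 0.727 to 21.5 CPM in pBIC, median 10.3. It was lowest in pBIC 3, while pBIC 5 and pBIC 6 lay at or near the YC levels, and the difference of -0.69 ± 0.70 did not pass the test (edgeR adjusted p = 0.518). Gene totals include exons outside a floxed part, so they do not measure recombination.

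Across the transcriptome 3211 of 17226 tested genes were called at an adjusted p under 0.05 in the edgeR test, which is 18.6%. Of these 1692 rose (9.82% of those tested) and 1519 fell (8.82%). The median log2 fold change was 0.11 over all tested genes, 1.26 over the genes that rose and -1.62 over those that fell. Fewer genes were called without 1 of the 3 YC libraries, namely 580 up and 827 down without YC 1, 429 and 653 without YC 2, and 596 and 747 without YC 3. These fits tested 17939, 18077 and 18152 genes. Of the 1082 genes called without YC 2, 1067 were also called with all 9 libraries. Without both pBIC 1 and pBIC 6, a setting chosen after seeing the data, 2509 rose and 2409 fell. With pBIC 2 and pBIC 5 summed, 2820 genes were called.

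The changes were also asked of each pBIC mark against the same 3 YC libraries, which the 2 comparisons share. In pBICh 956 genes rose and 824 fell (10.3% of those tested), and in pBICl 697 rose and 676 fell (7.97%). A change held in both marks for 1154 genes (6.70%), 602 of them higher and 552 lower, which is 35.9% of the genes called in all pBIC libraries together. Without YC 1 these were 71 higher and 142 lower, without YC 2 24 and 68, and without YC 3 25 and 76. Leaving out a tumour library moved them most for pBIC 5 (225 and 328), pBIC 3 (252 and 332) and pBIC 2 (314 and 367), where pBIC 2 and pBIC 3 are pBICh and pBIC 5 is pBICl. pBIC 2 and pBIC 5, which shared their leading V genes, thus sit in different marks. The counts per mark were not computed with these 2 libraries summed. A further 582 called genes passed in pBICh alone, 193 in pBICl alone and 1282 in neither, where each arm has 3 libraries. Compared directly, pBICh and pBICl differed in 0 genes by edgeR, 417 genes (2.42%) had an unadjusted p under 0.05, and DESeq2 called 23. Passing in 1 mark alone is thus no evidence of a difference between the marks. The libraries of pBIC and YC did not overlap at all for 4618 genes (26.8% of those tested), among them 3080 of the 3211 called.

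The genes for building ribosomes formed the most uniform rise. Of 33 nucleolar ribosome assembly genes 30 rose (90.9%, against 9.82% of all genes tested) and 0 fell. Of the 30, 26 rose in both pBICh and pBICl, and the list's median log2 fold change was 1.45 against 0.11 for all genes. Polr1a, the largest subunit of RNA polymerase I, was at 96.3, 81.9 and 85.8 CPM in YC and at 252 to 360 CPM in pBIC, median 335. Every pBIC library exceeded every YC library, and the change was 1.85 ± 0.18 (edgeR adjusted p = 0.000417). Npm1, the nucleolar chaperone nucleophosmin, was at 715, 602 and 739 CPM in YC and at 1588 to 3157 CPM in pBIC, median 2229. It was lowest in pBIC 4 and highest in pBIC 3, without overlap, and rose by 1.76 ± 0.29 (edgeR adjusted p = 0.00389). Nhp2, a protein of the particles that guide rRNA modification, rose by 1.93 ± 0.23 (edgeR adjusted p = 0.00111), and Wdr43, a factor of the small-subunit precursor, by 1.30 ± 0.14 (edgeR adjusted p = 0.00063). Wdr12, a factor of large-subunit maturation, went from 30.5 to 36.3 CPM in YC to 61.1 to 174 CPM in pBIC. Between 24 and 26 members rose when any of the YC libraries was left out. Ncl, the nucleolar protein nucleolin, rose by 1.39 ± 0.28 (edgeR adjusted p = 0.00918) but lost its call without YC 2 (edgeR adjusted p = 0.0565).

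**Figure D2:**
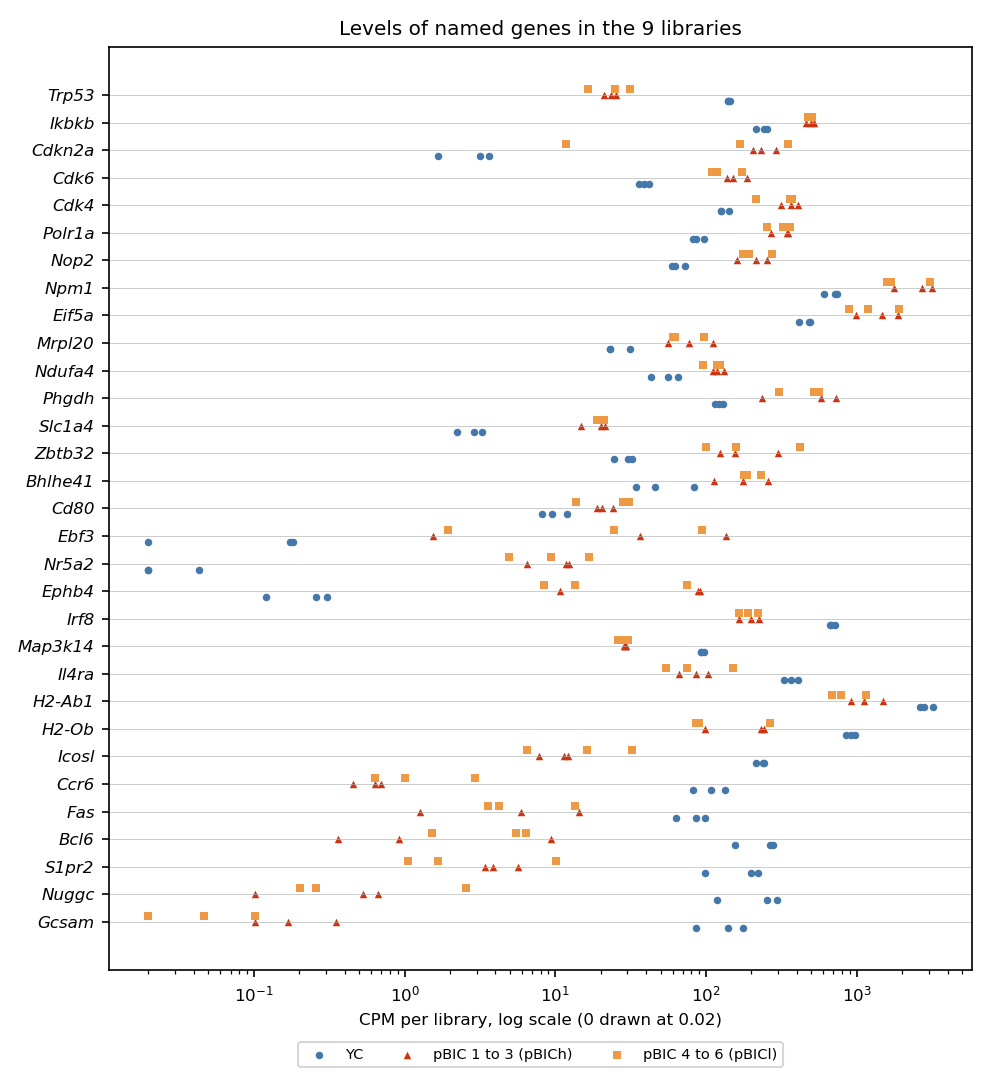
Level of named genes in each library, in CPM on a log axis, with genes in rows and 1 point per library, coloured by group and mark. A level of 0 is drawn at 0.02. Trp53 sat at 16.4 to 31.3 CPM in pBIC and 139 to 144 CPM in YC, and Polr1a at 252 to 360 CPM and 81.9 to 96.3 CPM.

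Nop2, an rRNA methyltransferase of the nucleolus, was at 72.9, 59.5 and 62.0 CPM in YC and at 160 to 274 CPM in pBIC, median 205. It lay higher in all 6 pBIC libraries and rose by 1.71 ± 0.22 (edgeR adjusted p = 0.00131). Its promoter is shown because it holds an E-box of the letters CACGTG, the site that MYC and other factors of its class can bind. The window is the 160 bases before the RefSeq start in GRCm38.p6 (chr6:125131723-125131882, plus strand), and the capitals mark the E-box, whose first base lies 60 bases before the start.
Nop2: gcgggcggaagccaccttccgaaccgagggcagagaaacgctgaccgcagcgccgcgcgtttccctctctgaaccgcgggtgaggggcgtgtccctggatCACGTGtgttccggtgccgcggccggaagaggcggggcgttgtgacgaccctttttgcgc
The letters CACGTG, which read the same on both strands, occurred in the 300-base promoters (250 bases before to 50 after the start) of 5 of 27 ribosome assembly genes with a RefSeq entry (18.5%), in 11.3% of 11069 tested genes with an entry and in 7.15% of 32851 promoters. A match is a description of the sequence only. Myc itself was at 570, 314 and 306 CPM in YC and at 387 to 1422 CPM in pBIC, median 905. The groups overlapped, since pBIC 2 was below YC 1, and the difference of 1.18 ± 0.40 did not pass the test (edgeR adjusted p = 0.0676).

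The ribosome and its translation factors were higher as well. Of 24 cytosolic ribosomal protein genes 14 rose (5 in both marks, median 0.64), of 25 mitochondrial ribosomal protein genes 17 (6 in both, median 0.90), of 22 translation factors 14 (5 in both, median 0.87) and of 20 tRNA synthetases 12 (9 in both, median 1.0). None of these lists had a member that fell. Rplp0, a stalk protein of the large subunit, was at 2236, 2029 and 2477 CPM in YC and at 3639 to 5804 CPM in pBIC, median 4778, without overlap, and rose by 1.10 ± 0.19 (edgeR adjusted p = 0.00538). Rps2 rose by 1.11 ± 0.18 and Rpl11, a ribosomal protein that can also bind the p53 ligase MDM2, by 1.10 ± 0.18 (edgeR adjusted p = 0.00388 and 0.00404). Reads that fit several places in the genome were not counted, so genes with many processed copies, such as these, are uncertain. Among the translation factors, Eif5a, the hypusinated elongation factor, rose by 1.58 ± 0.29 and Eif2b3, a subunit of the eIF2 exchange factor, by 1.69 ± 0.25 (edgeR adjusted p = 0.0061 and 0.00235). Without 1 YC library 4 to 6 cytosolic ribosomal protein genes, 2 to 6 mitochondrial ones, 4 to 6 translation factors and 5 to 9 tRNA synthetases still passed. In these fits 429 to 596 of 17939 to 18152 genes tested rose.

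Metabolic genes of the mitochondrion and of nucleotide and serine synthesis followed the same direction. Of 28 nuclear genes of the respiratory chain 20 rose (5 in both marks, median 0.78), whereas 0 of 13 genes encoded in mitochondrial DNA passed in edgeR (0 at an unadjusted p under 0.05, 0 with DESeq2; median 0.45). Of 16 TCA cycle genes 8 rose (6 in both, median 0.73). Suclg2, a subunit of succinyl-CoA synthetase, was at 44.0, 46.7 and 54.7 CPM in YC and at 95.7 to 129 CPM in pBIC, median 108. All 6 pBIC libraries lay above YC, with a change of 1.18 ± 0.16 (edgeR adjusted p = 0.00178). Mdh2, mitochondrial malate dehydrogenase, rose by 1.21 ± 0.23 and Ndufa4, a respiratory chain subunit, by 1.09 ± 0.18 (edgeR adjusted p = 0.00717 and 0.00384). Of 23 tested glycolysis genes 7 rose (2 in both, median 0.86), among them Pdk1, the kinase that inhibits pyruvate dehydrogenase, by 1.76 ± 0.33 (edgeR adjusted p = 0.00676). Without 1 YC library 3 to 7 respiratory chain genes, 3 to 6 TCA cycle genes and 1 or 2 glycolysis genes passed, and with a term for Xist expression 9 respiratory chain genes passed.

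Nucleotide synthesis had 14 of 26 genes higher (8 in both marks, median 1.12), and 5 to 8 without 1 YC library. Dctpp1, which clears modified dCTP, rose by 2.07 ± 0.33, and Ctps, CTP synthase, by 1.63 ± 0.25 (edgeR adjusted p = 0.00348 and 0.00298). Tyms, thymidylate synthase, was at 27.3, 25.2 and 28.5 CPM in YC and at 38.3 to 71.2 CPM in pBIC, lowest in pBIC 4, and rose by 1.19 ± 0.21 (edgeR adjusted p = 0.00578). Of 22 genes of serine, one-carbon and ATF4-linked metabolism 8 rose (6 in both, median 0.90), and 5 did so without 1 YC library. Slc1a4, a neutral amino acid transporter, was at 2.23, 3.28 and 2.90 CPM in YC and at 14.8 to 21.2 CPM in pBIC, median 19.8. The lowest pBIC library, pBIC 3, was well above the highest YC library, and the change was 2.78 ± 0.25 (edgeR adjusted p = 0.000253). Shmt1 and Shmt2, which pass serine carbon to folate, rose by 2.12 ± 0.30 and 1.29 ± 0.21, and Phgdh, the first enzyme of serine synthesis, by 2.0 ± 0.36 (edgeR adjusted p = 0.00193, 0.00347 and 0.00579). Of 27 proteasome subunit genes 17 rose (4 in both, median 0.78), but 1 to 4 passed without 1 YC library. Psmb2, a core subunit, kept its call in each such fit (1.19 ± 0.20, edgeR adjusted p = 0.00491). With all 9 libraries the rises made up 53.8% of the nucleotide, 36.4% of the serine and 63.0% of the proteasome list, against 9.82% of all genes tested.

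**Figure D3:**
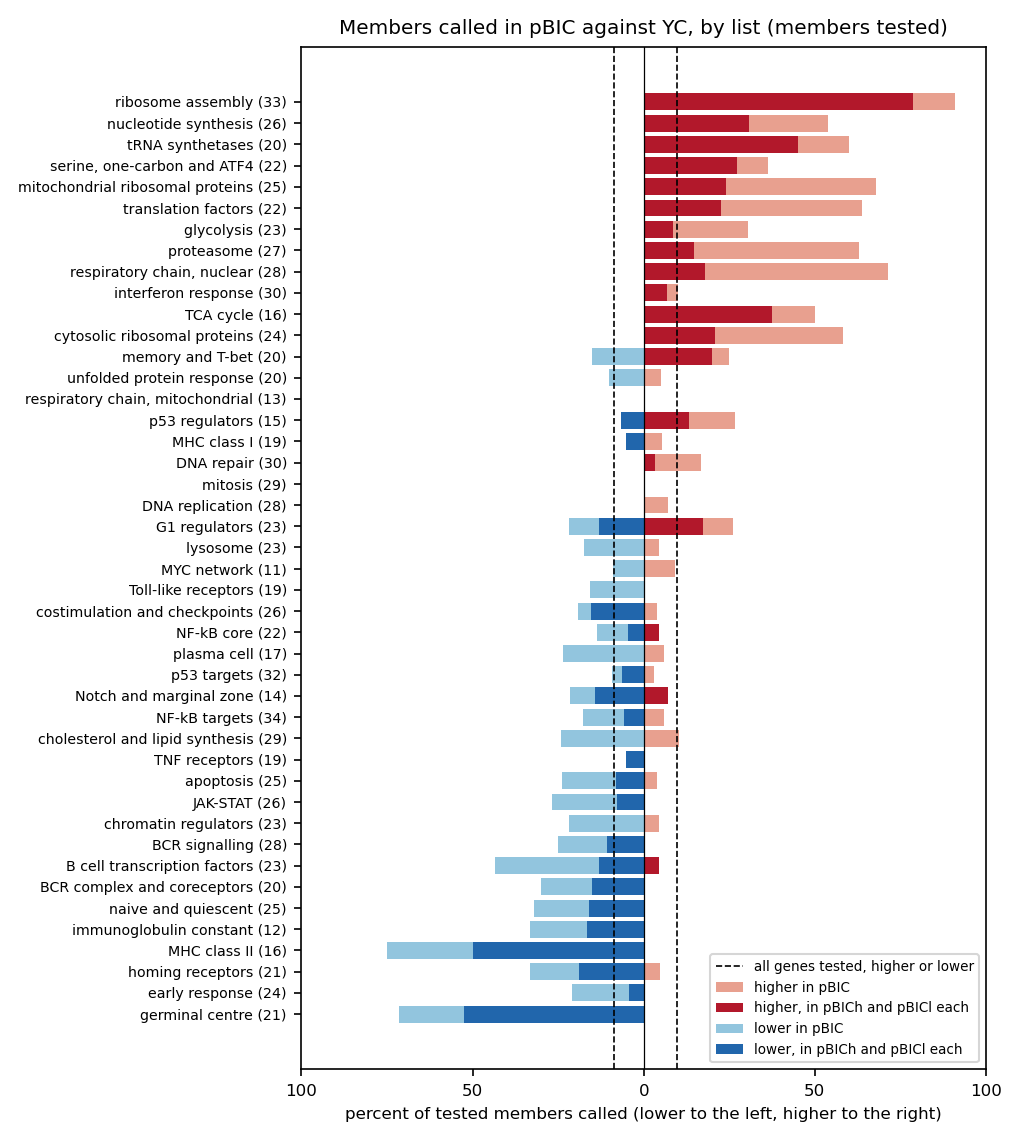
Members of each gene list that rose or fell in pBIC against YC, as a share of the members tested. Bars to the right count genes that rose and bars to the left genes that fell, with the dark part holding in both pBICh and pBICl, and dashed lines give the shares over all genes tested. Lists are ordered by their median log2 change. Ribosome assembly had 30 of 33 members higher, MHC class II 12 of 16 lower and the germinal centre list 15 of 21 lower.

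Few genes of cell division rose in pBIC against YC. Of 29 mitosis genes 0 passed in edgeR (3 at an unadjusted p under 0.05, 0 with DESeq2; list median 0.16) and of 28 DNA replication genes 2 rose (median 0.16), against 9.82% of all tested genes. Neither Orc1 nor Gmnn, the 2 that rose, passed when YC 1, YC 2 or YC 3 was left out (edgeR adjusted p up to 0.197). Without pBIC 1, 5 DNA replication genes rose, and without both pBIC 1 and pBIC 6, 6 did. This list's median level against YC was -0.54 in pBIC 1, -0.13 in pBIC 6 and 0.15 to 0.54 in the other pBIC libraries. All these changes are relative to YC cells, whose rate of division was not measured. Regulators of G1 changed in both directions, with 6 of 23 higher and 5 lower (47.8% called, against 18.6% of all genes tested). Without 1 YC library 4 or 5 were higher and 3 or 4 lower. Cdk6, a kinase that opens the cell cycle with D-type cyclins, was at 41.6, 35.9 and 38.9 CPM in YC and at 109 to 186 CPM in pBIC, median 145. All pBIC libraries were higher, and it rose by 1.91 ± 0.21 (edgeR adjusted p = 0.000712), while its partner kinase Cdk4 rose by 1.37 ± 0.22 (edgeR adjusted p = 0.00338). The D-type cyclins differed, because Ccnd3 fell from 142, 159 and 170 CPM to 51.3 to 77.4 CPM (-1.35 ± 0.15, edgeR adjusted p = 0.000813) and Ccnd1, which YC held at 1.35 to 1.54 CPM, was at 2.66 to 122 CPM in pBIC. Ccnd1 was highest in pBIC 4 and lowest in pBIC 6, and its rise of 5.20 ± 1.32 (edgeR adjusted p = 0.0235) was lost when YC 1, YC 2 or YC 3 was left out (edgeR adjusted p up to 0.104). Cdkn2d, an inhibitor of CDK4 and CDK6, fell by 1.66 on the log2 scale (SE 0.25, edgeR adjusted p = 0.0028). Of 30 DNA repair genes 5 rose (16.7%, against 9.82% of all tested genes), and 0 or 1 did so without 1 YC library.

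Cdkn2a (chr4:89274471-89294653) encodes p16INK4a, which inhibits CDK4 and CDK6, and ARF, which stabilises p53. It was at 1.67, 3.65 and 3.14 CPM in YC and at 11.7 to 352 CPM in pBIC, median 219. The gene was high in all pBIC libraries, lowest in pBIC 6, and rose by 6.22 ± 1.0 (edgeR adjusted p = 0.00375; 6.43 in pBICh and 5.98 in pBICl). Gene counts do not separate its 2 products. Of 32 tested p53 target genes 1 rose and 3 fell (median -0.18), which is 12.5% against 18.6% of all genes. Gadd45a, a growth arrest gene, fell from 24.4, 20.7 and 22.3 CPM to 2.37 to 7.07 CPM (-2.69 ± 0.37, edgeR adjusted p = 0.00176). Fas, the death receptor that is also a germinal centre marker, fell from 62.7, 85.7 and 98.0 CPM to 1.27 to 14.3 CPM (-3.52 ± 0.62, edgeR adjusted p = 0.00532). Mdm2, the p53 ligase and target, was at 152, 152 and 136 CPM in YC and 52.8 to 141 CPM in pBIC, where pBIC 6 overlapped YC, and its difference of -0.81 ± 0.28 did not pass (edgeR adjusted p = 0.0729). Of the 27 listed apoptosis genes 25 were tested, 6 fell and 1 rose (28% called, against 18.6% of all genes, median -0.42). Without 1 YC library 3 or 4 fell. Bcl2l1, the survival gene for BCL-XL, fell by 1.76 on the log2 scale (SE 0.33, edgeR adjusted p = 0.00663), and Cflar, an inhibitor of death receptor signalling, by 1.46 (SE 0.27, edgeR adjusted p = 0.00674).

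Germinal centre genes were lower in pBIC. Of 21 such genes 15 fell (71.4%, against 8.82% of all genes tested) and 0 rose. Of the 15, 11 fell in both pBICh and pBICl. The list median was -3.27, and 12 or 13 members fell without 1 YC library. Bcl6 (chr16:23965052-23988852), the repressor that maintains the germinal centre programme, was at 155, 278 and 267 CPM in YC and at 0.364 to 9.37 CPM in pBIC, median 3.49. Every pBIC library was far below every YC library, and the change was -5.86 ± 0.85 (edgeR adjusted p = 0.0023). Gcsam (chr16:45610380-45622867), which restrains the motility of germinal centre lymphocytes, was at 85.6, 140 and 176 CPM in YC and at 0 to 0.351 CPM in pBIC, with no count in pBIC 6. Its fitted change was -9.98 ± 0.69 (edgeR adjusted p = 0.000107). S1pr2, the receptor that keeps cells inside the germinal centre, changed by -5.33 ± 0.62 on the log2 scale, Mybl1, a transcription factor, by -4.78 ± 0.74, and Nuggc, a nuclear GTPase, by -8.26 ± 0.89. For these the edgeR adjusted p was 0.00094, 0.00312 and 0.00063. The YC cells themselves thus expressed germinal centre genes, and a lower level in the tumours cannot be told apart from a different state of the control cells.

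**Figure D4:**
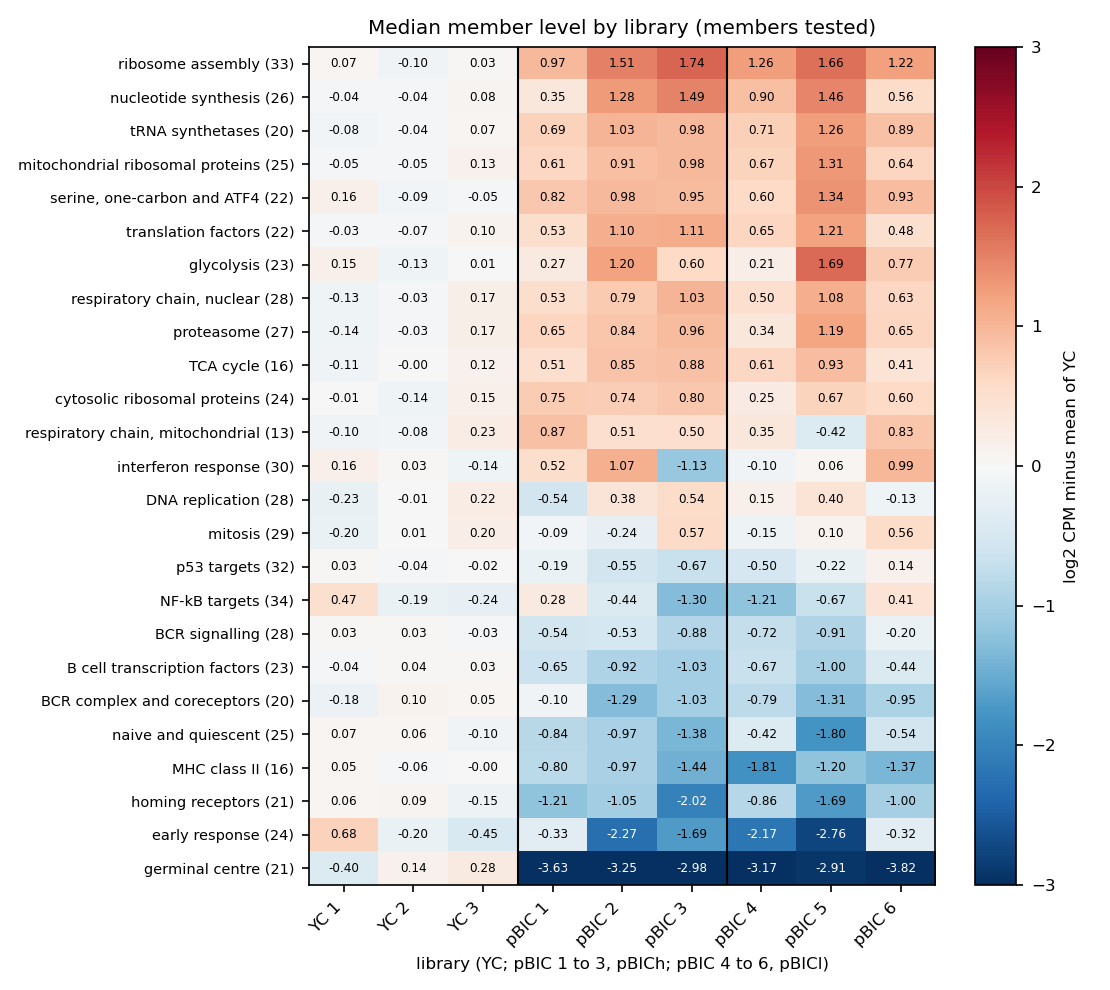
Median log2 level of each gene list in each library, relative to the mean of the YC libraries, with lists in rows and the 9 libraries in columns. Colours end at -3 and 3, and the germinal centre list lies at -3.82 to -2.91 in the 6 pBIC libraries, while ribosome assembly lies at 0.97 to 1.74.

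Plasma cell genes did not take their place. Of 17 plasma cell genes 1 rose and 4 fell (0 in both marks, median -0.17), and 0 rose and 1 or 2 fell without 1 YC library. The members called made up 29.4% of this list, against 18.6% of all genes tested. Sdc1, which encodes the plasma cell surface protein CD138, was at 12.8, 12.3 and 12.6 CPM in YC and at 0.153 to 2.81 CPM in pBIC, lowest in pBIC 1, and fell by 2.95 on the log2 scale (SE 0.62, edgeR adjusted p = 0.0114). Jchain, the joining chain of secreted IgA and IgM, was at 599, 614 and 654 CPM in YC and at 0.661 to 65.3 CPM in pBIC, highest in pBIC 5. Its change of -5.61 ± 1.40 (edgeR adjusted p = 0.022) was lost when YC 1, YC 2 or YC 3 was left out (edgeR adjusted p at most 0.0648). Of 20 genes of the unfolded protein response 1 rose and 2 fell (15% called, below the share of all genes, median 0.46). Among the 2, Eif2ak3, the stress sensor PERK, fell by 1.60 on the log2 scale (SE 0.33, edgeR adjusted p = 0.0103). Constant regions of immunoglobulin fell in 4 of 12 genes (33.3%, against 8.82% of all genes tested) and rose in 0, and 2 or 3 genes fell without 1 YC library. Igha, for IgA, went from 239, 189 and 68.3 CPM to 1.65 to 5.77 CPM (-5.44 ± 0.46, edgeR adjusted p = 0.000171), and Ighd, for IgD, from 570, 607 and 565 CPM to 8.49 to 52.1 CPM (-4.37 ± 0.45, edgeR adjusted p = 0.000527).

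Class II antigen presentation fell as a group. Of 16 class II genes 12 fell (75.0%, against 8.82% of all genes tested) and 0 rose. Of the 12, 8 fell in both marks. The list median was -1.19, and 8 to 10 members fell without 1 YC library. H2-Ob, a subunit of the H2-O chaperone that modulates peptide loading, was at 851, 971 and 913 CPM in YC and at 85.2 to 267 CPM in pBIC, median 164, and changed by -2.44 ± 0.39 (edgeR adjusted p = 0.00375). H2-DMb1, of the H2-M peptide-loading chaperone, was at 275, 227 and 205 CPM in YC and at 52.6 to 97.0 CPM in pBIC (-1.73 ± 0.21, edgeR adjusted p = 0.00106). Among the genes for the presenting molecules, H2-Aa was at 2836, 2677 and 2904 CPM in YC and at 734 to 1563 CPM in pBIC (-1.29 ± 0.22, edgeR adjusted p = 0.00494). All 3 were lower in every pBIC library than in every YC library. H2-Ab1 fell by 1.48 on the log2 scale (SE 0.23, edgeR adjusted p = 0.00341), and H2-Eb1 by 1.18 (SE 0.25, edgeR adjusted p = 0.0118), the latter call being lost without YC 3 (edgeR adjusted p = 0.0536). Ciita, the activator that switches class II genes on, was at 730, 749 and 686 CPM in YC and at 43.4 to 274 CPM in pBIC, median 125, and changed by -2.33 ± 0.42 (edgeR adjusted p = 0.00587). It was lowest in pBIC 6 and highest in pBIC 2, and the groups did not overlap. Class I genes behaved otherwise, with 1 of 19 higher and 1 lower (10.5% called, against 18.6% of all genes tested, median 0.30). The one that fell, H2-M3, presents formylated peptides (-1.34 ± 0.26, edgeR adjusted p = 0.00816). Dendritic cells also carry class II molecules. The summed level of 8 listed dendritic cell markers was 53 to 84.8 CPM in YC and 9.36 to 15.9 CPM in pBIC. Of the 5 tested, Flt3 alone, at 40.5 to 54.1 CPM in YC, fell. The part of such cells in the class II values was not tested.

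Class II promoters share an arrangement of short elements that includes a CCAAT box, read as ATTGG on the coding strand. The 160 bases before the RefSeq start (GRCm38.p6) are shown for 4 of the genes that fell, to let the shared element be seen. They are H2-Ob (chr17:34238745-34238904, plus strand), H2-DMb1 (chr17:34153031-34153190, plus strand), H2-Aa (chr17:34287824-34287983, minus strand) and H2-Eb1 (chr17:34305707-34305866, plus strand). Capitals mark ATTGG, or CCAAT where the box is read on the other strand.
H2-Ob: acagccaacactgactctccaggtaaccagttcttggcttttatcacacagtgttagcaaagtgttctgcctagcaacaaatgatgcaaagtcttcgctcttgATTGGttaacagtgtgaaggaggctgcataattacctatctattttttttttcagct
H2-DMb1: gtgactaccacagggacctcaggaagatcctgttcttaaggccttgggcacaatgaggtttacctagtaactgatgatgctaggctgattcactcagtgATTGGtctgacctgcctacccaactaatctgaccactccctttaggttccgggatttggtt
H2-Aa: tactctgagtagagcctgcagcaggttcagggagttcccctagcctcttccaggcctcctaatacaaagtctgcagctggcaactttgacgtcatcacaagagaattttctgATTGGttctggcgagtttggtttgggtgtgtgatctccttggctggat
H2-Eb1: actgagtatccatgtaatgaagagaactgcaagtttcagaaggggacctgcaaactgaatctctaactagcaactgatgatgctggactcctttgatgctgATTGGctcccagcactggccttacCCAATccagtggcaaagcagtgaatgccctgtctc
The first base of ATTGG lies 57, 61, 48 and 59 bases before the start in H2-Ob, H2-DMb1, H2-Aa and H2-Eb1. Searched on both strands of the 300-base promoters, ATTGG occurred in 10 of 12 class II list genes with a RefSeq entry (83.3%), in 42.7% of the tested genes with an entry and in 37.4% of all 32851 promoters. The match describes the letters and says nothing of factor binding in these cells.

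Genes of the mature B cell surface and of antigen receptor signalling fell or did not pass the test, and 0 rose. Of 20 genes of the receptor complex and its coreceptors 6 fell (3 in both marks, median -0.84), of 28 signalling genes 7 (3 in both, median -0.57) and of 25 genes of naive and quiescent B cells 8 (4 in both, median -0.94). These falls made up 30%, 25% and 32% of the 3 lists, against 8.82% of all genes tested. Fcer2a, the gene for the IgE receptor CD23, was at 685, 621 and 547 CPM in YC and at 1.36 to 42.2 CPM in pBIC, median 8.66 (-5.56 ± 0.86, edgeR adjusted p = 0.00313). Cr2, the complement receptor CD21, was at 461, 619 and 606 CPM in YC and at 0.703 to 43.9 CPM in pBIC (-4.67 ± 0.90, edgeR adjusted p = 0.00781). Both were lowest in pBIC 5 and far below YC in all pBIC libraries. Cd22, an inhibitory coreceptor, fell by 1.36 on the log2 scale (SE 0.24, edgeR adjusted p = 0.00541). Ptprc, which encodes CD45 and thus the B220 epitope used for sorting, was at 1669, 1983 and 1887 CPM in YC and at 444 to 784 CPM in pBIC (-1.74 ± 0.20, edgeR adjusted p = 0.000911). Satb1, a chromatin organiser of resting lymphocytes, fell from 116, 75.8 and 63.6 CPM to 1.25 to 4.70 CPM (-5.16 ± 0.40, edgeR adjusted p = 0.000123). Within the signalling list Nfatc2, a calcium-dependent factor, fell by 2.15 on the log2 scale (SE 0.23), Bank1, an adaptor, by 1.41 (SE 0.20), and Plcg2, the phospholipase downstream of the receptor, by 1.02 (SE 0.20). Their edgeR adjusted p was 0.000588, 0.00186 and 0.00824. Without 1 YC library 5, 4 and 4 or 5 members of the 3 lists fell, and 13, 18 and 11 did without both pBIC 1 and pBIC 6.

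Among 23 B cell transcription factors 10 fell and 1 rose (median -0.80), with 3 falling without YC 1, YC 2 or YC 3. The members called made up 47.8% of this list, against 18.6% of all genes tested. Irf8 (chr8:120736358-120756694), a factor of germinal centre and myeloid cells, was at 715, 678 and 664 CPM in YC and at 165 to 225 CPM in pBIC, median 195. The pBIC libraries lay within a narrow band below YC, and the change was -1.82 ± 0.15 (edgeR adjusted p = 0.000166; -1.80 in pBICh and -1.83 in pBICl). Spi1, the gene for its partner PU.1, fell by 0.80 on the log2 scale (SE 0.13, edgeR adjusted p = 0.0036). Bhlhe41, a repressor known from B-1a and memory B cells, was the member that rose, from 83.3, 46.1 and 34.4 CPM to 113 to 257 CPM (1.80 ± 0.34, edgeR adjusted p = 0.00708). Of 20 genes linked to memory and T-bet-positive B cells 5 rose and 3 fell (median 0.51), and all but 1 of the rises held in both marks. Without 1 YC library 4 rose and 0 or 1 fell. Zbtb32, a repressor of memory recall, rose from 32.4, 30.5 and 24.4 CPM to 100.0 to 418 CPM (2.84 ± 0.50, edgeR adjusted p = 0.00532). Cd9, a tetraspanin, rose by 1.94 ± 0.32, S100a6, a calcium-binding protein, by 3.35 ± 0.59, and Lgals1, galectin-1, by 2.13 ± 0.41 (edgeR adjusted p = 0.00425, 0.00549 and 0.00786). On the other side Tbx21, the gene for T-bet, changed by -3.25 ± 0.85 (edgeR adjusted p = 0.0261), a call lost when YC 1, YC 2 or YC 3 was left out (edgeR adjusted p at most 0.0815). Macrophages also express galectins and S100 proteins, and their summed markers are given above; their part was not tested.

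Among receptors for position and contact, the members called made up 38.1% of homing receptors and 23.1% of costimulation and checkpoint genes, against 18.6% of all genes tested. The share was 26.9% for JAK-STAT, 28.6% for Notch and marginal zone and 15.8% for Toll-like receptor genes. The shares for costimulation and Toll-like receptors lie near that of all genes. Of 21 homing receptors 7 fell and 1 rose (median -1.26), and 4 fell without 1 YC library. Ccr6 (chr17:8236043-8257127), the receptor for CCL20, was at 133, 107 and 81.5 CPM in YC and at 0.458 to 2.92 CPM in pBIC, median 0.668, and changed by -6.66 ± 0.57 (edgeR adjusted p = 0.000205). The highest pBIC library, pBIC 4, was far below the lowest YC library. Of 26 costimulation and checkpoint genes 5 fell and 1 rose (median -0.03). Icosl, the ligand through which B cells engage ICOS on T cells, fell from 241, 240 and 216 CPM to 6.49 to 32.4 CPM (-4.01 ± 0.44, edgeR adjusted p = 0.000712), and Slamf1, a self-binding lymphocyte receptor, from 102, 91.5 and 95.2 CPM to 0.754 to 6.97 CPM (-5.43 ± 0.66, edgeR adjusted p = 0.00116). Cd80, a ligand of CD28, rose by 1.20 ± 0.29 (edgeR adjusted p = 0.019) but not when YC 1, YC 2 or YC 3 was left out (edgeR adjusted p at most 0.093). Of 26 JAK-STAT genes 7 fell (median -0.47), and 2 to 5 without 1 YC library. Il4ra, the IL-4 receptor, fell by 2.04 on the log2 scale (SE 0.29) and Jak1 by 1.45 (SE 0.23), with an edgeR adjusted p of 0.00193 and 0.00351. Of 14 Notch and marginal zone genes 1 rose and 3 fell (1 and 2 in both marks, median -0.20), and these numbers were the same without 1 YC library. The log2 fold changes of this list ran from -4.67 to 8.84. Among the 3, the Notch target Hes1 fell by 2.83 (SE 0.47) and Dtx1, a Notch regulator, by 1.67 (SE 0.30), with an edgeR adjusted p of 0.00416 and 0.00593. Of 19 Toll-like receptor genes 3 fell, with 0 or 1 doing so without 1 YC library.

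The NF-kB lists did not rise as groups although Ikbkb did. Of 22 core NF-kB genes Ikbkb alone rose and 3 fell (median -0.10), and of 34 tested target genes 2 rose and 6 fell (median -0.27), against 9.82% higher and 8.82% lower over all genes. Without 1 YC library 1 core gene and 3 or 4 targets fell and 0 targets rose, and the falls numbered 6 and 13 without both pBIC 1 and pBIC 6. Other settings gave more rises. DESeq2 called 5 targets higher and 6 lower, and edgeR with a term for Xist expression called 5 higher and 4 lower. Map3k14 (chr11:103219762-103267472), the gene for NIK, which drives the non-canonical pathway, was at 92.1, 97.0 and 92.2 CPM in YC and at 26.1 to 30.2 CPM in pBIC. The 6 tumours lay within a few CPM of each other, and the change was -1.72 ± 0.12 (edgeR adjusted p = 0.000112). Gadd45b, a stress gene induced by NF-kB, fell from 300.0, 136 and 181 CPM to 16.3 to 54.3 CPM (-2.51 ± 0.39, edgeR adjusted p = 0.00338). The 2 targets that rose in the main edgeR fit were Cd80 and Ccl5, a chemokine at 1.91 to 2.53 CPM in YC and 2.74 to 28.6 CPM in pBIC. Neither passed when YC 1, YC 2 or YC 3 was left out (edgeR adjusted p at most 0.11 for Ccl5). The summed level of all 35 listed targets was 9041, 5212 and 5014 CPM in YC 1, 2 and 3, and it was 7864 and 9136 CPM in pBIC 1 and pBIC 6 and 2581 to 3980 CPM in the other 4 tumours. The 24 immediate early response genes split the libraries likewise, with 17302 CPM in YC 1 and 10649 and 9238 CPM in YC 2 and 3, and with 11483 and 14172 CPM in pBIC 1 and 6 against 1773 to 3571 CPM in the others. Of these 24 genes 5 fell, and 18 did so without pBIC 1 and pBIC 6. Nr4a1, an orphan receptor induced by antigen receptor signals, was lower in all pBIC libraries and fell from 1239, 721 and 566 CPM to 22.3 to 237 CPM (-3.20 ± 0.57, edgeR adjusted p = 0.00567). Such genes respond to cell handling as well, and the part of handling was not tested.

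The members called made up 10% of the interferon response list, 18.2% of the MYC network, 5.26% of the TNF receptors and 26.1% of the chromatin regulators, against 18.6% of all genes tested. Of 30 interferon response genes 3 rose and 0 fell, where 9.82% of all genes tested rose. Of the 3, Xaf1, a pro-apoptotic factor (1.83 ± 0.26), and Eif2ak2, the kinase PKR (0.86 ± 0.15), held in both marks (edgeR adjusted p = 0.0022 and 0.00545). The list's median log2 fold change was 0.75 (0.44 in pBICh and 0.87 in pBICl), against 0.11 for all genes. DESeq2 called 7 members higher, and edgeR with a term for Xist expression called 5. Of 11 tested genes of the MYC network 1 rose and 1 fell, of 19 TNF receptors 1 fell (Fas), and of 23 chromatin regulators 1 rose and 5 fell. Without 1 YC library 0 or 1 of the 5 chromatin regulators passed.

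The genes with the highest fold changes were nearly silent in YC. Sat2 (chr11:69622024-69623870), an acetyltransferase relative, and Ephb4, a receptor kinase of vessels, were the only genes under 0.5 CPM in all YC and at or over 5 CPM in all pBIC libraries. Sat2 had 2 counts in YC in all and 5.64 to 25.7 CPM in pBIC, a ratio of 717 with an exact 95% interval of 129 to 28300, taken on read pairs and covering counting error only. Ephb4 was at 0.257, 0.304 and 0.121 CPM in YC and at 8.45 to 91.1 CPM in pBIC, and rose by 7.67 ± 1.23 (edgeR adjusted p = 0.00361). Sat2 lies 30151 bases from Trp53 on the same chromosome. Shbg, 22931 bases away and the gene for a steroid carrier, also rose, from at most 0.0217 CPM to 1.58 to 12.2 CPM. Atp1b2, at 7863 bases, differed by 2.84 ± 0.94 without passing (edgeR adjusted p = 0.062), while Wrap53, at 104 bases on the other side, differed by 0.15 ± 0.17. Sat2, Shbg and Atp1b2 were highest in pBIC 4, as Trp53 was among the tumours. Nr5a2 (chr1:136842571-136960448), a nuclear receptor of liver and gut, had 2 counts in YC in all and 4.89 to 16.8 CPM in pBIC, a ratio of 628 (113 to 24800).

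Other strong rises were Mpp3, a scaffold protein (8.29 ± 1.54, edgeR adjusted p = 0.00666), Btbd11, an ankyrin repeat protein (6.40 ± 0.94, edgeR adjusted p = 0.00248), and Plxdc1, a membrane receptor (6.15 ± 0.97, edgeR adjusted p = 0.00335). Mpp3 was at 0.377 CPM in pBIC 6 and reached 35.8 CPM elsewhere. Many of the other high folds varied more between tumours. Ebf3, a relative of the B cell factor EBF1, was at 1.54 to 136 CPM in pBIC and at most 0.181 CPM in YC, and Fras1, a matrix protein, at 3.78 to 721 CPM against 1.24 to 2.68 CPM. Both calls were lost when YC 1, YC 2 or YC 3 was left out (edgeR adjusted p at most 0.0731 and 0.138).

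On the other side 59 genes were under 0.5 CPM in every pBIC library and at or over 5 CPM in every YC library, of which 51 were immunoglobulin segments. The other 8 included Gcsam and Cobl, an actin nucleator. Cobl was at 17.8, 19.9 and 34.7 CPM in YC and at 0 to 0.189 CPM in pBIC (-8.34 ± 1.01, edgeR adjusted p = 0.00115). It was at or near 0 in all 6 tumours. Slc22a15 and Slc41a2, a solute and a magnesium transporter, fell by 6.84 and 6.81 on the log2 scale (SE 0.50 and 0.48, both edgeR adjusted p = 0.000112). Lrrk2, a large kinase known from Parkinson's disease, was at 530, 490 and 429 CPM in YC and at 0.712 to 23.8 CPM in pBIC (-5.77 ± 1.06, edgeR adjusted p = 0.00657). Macf1, a linker of microtubules and actin with a long transcript, fell from 3037, 3059 and 2553 CPM to 411 to 1124 CPM (-1.71 ± 0.28, edgeR adjusted p = 0.00413), and CPM are not scaled for length.

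Whole chromosomes shifted, to differing degrees between tumours. For each library the median log2 level of the genes of a chromosome was taken relative to the mean of YC and centred on all autosomes. The 3 YC libraries stayed between -0.05 and 0.04 on all 19 autosomes. In pBIC there were 10 shifts of at least 0.4 in size, 5 of them in pBIC 1, and in each of the 10 every 25-megabase window of the chromosome had the same sign. Chromosome 10 was at 0.57 in pBIC 6, and chromosome 12 at -0.54 in pBIC 1. Chromosome 12 was below 0 in every pBIC library (-0.54 to -0.12), as was chromosome 19 (-0.42 to -0.11). Immunoglobulin segments were kept in these medians, and their part was not tested. Chromosome 14 was raised in pBIC 2 (0.49) and pBIC 5 (0.48), the libraries that shared their leading V genes. pBIC 3 had no shift of that size. These are RNA levels, DNA copy number was not measured, and the part of these shifts in the calls of single genes was not tested.

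**Figure D5:**
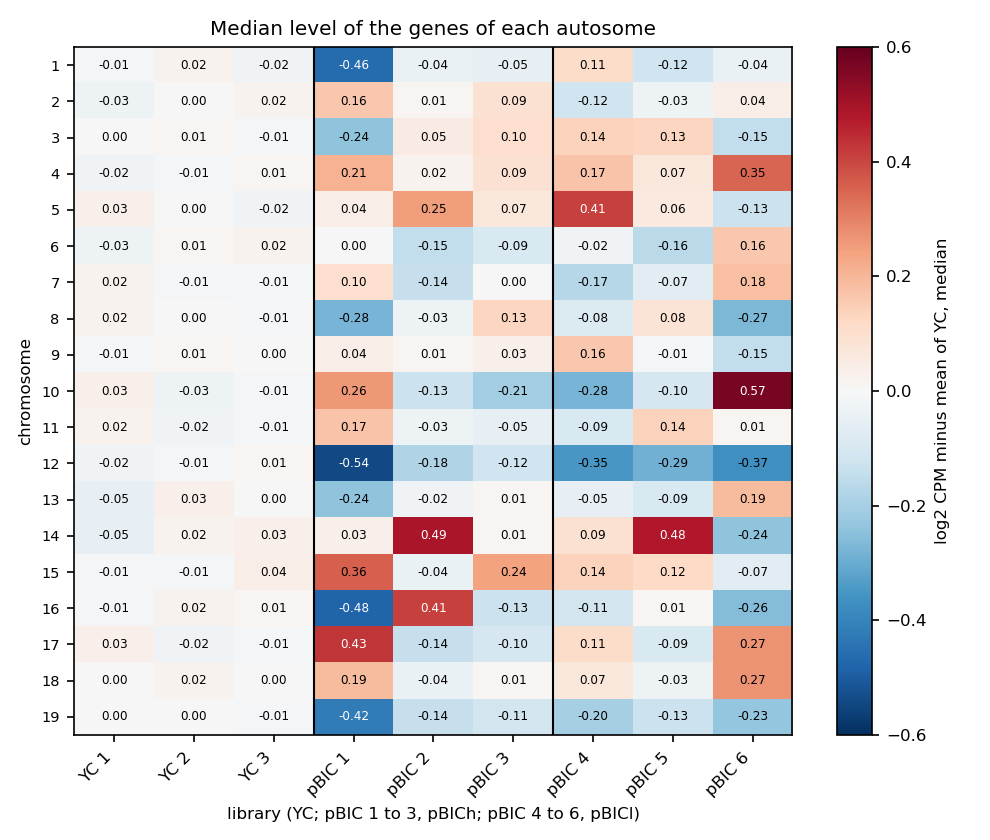
Median log2 level of the genes of each autosome in each of the 9 libraries, relative to the YC mean and centred on all autosomes, with chromosomes in rows and libraries in columns. The YC columns are near 0, and chromosome 14 is raised in pBIC 2 and pBIC 5.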

How the data were processed

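RNA-seq counts of 9 libraries were used. The deposited values are raw counts per gene, made by the authors with featureCounts 1.5.0 on GENCODE M13, per the file headers, without pairing mates, strand or multi-mapping reads. Antisense genes and near-identical copies are therefore uncertain. The submitters' processing notes name STAR and the builds mm10 and GRCm38. The aligner's version is not given in the sources used here. The header folder of YC 1 is named differently from the others.

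Groups came from the sample titles and marks from the count column names. Genes passing edgeR's expression filter by group (minimum count 10) entered edgeR 4.0.16 (R 4.3.3; TMM factors, robust quasi-likelihood F test, Benjamini-Hochberg over 17226 genes, called at 0.05), with a second fit of pBICh, pBICl and YC coefficients. DESeq2 1.42.0 was an alternative. The SE was taken as |log2 fold change| over the root of F. CPM are counts per 1000000 after TMM scaling. Unnamed genes held at most 0.0174% of counts. The fit was tested on simulated counts.

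Members and gene lists (53) were chosen with earlier results of these data known. Named genes were the engineered genes, the 15 largest folds each way with a mean of at least 5 CPM and no overlap between groups, the 10 largest changes in CPM each way, up to 10 on or off genes, and up to 4 members per list by p. Mybl1, Ccnd1, Ciita, Myc, Cd79a, Ms4a1, Mdm2, Shbg, S100a6, Lgals1, Wdr12 and the neighbours of Trp53 were added after their values were seen. Some chosen genes are not reported here, and counts of named genes include them. Promoters came from RefSeq (GRCm38.p6).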

Additional observations from a re-analysis of the deposited data

Results flagged for a closer look

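In each group of 6 pBIC libraries the highest and lowest values of 188 named genes, 53 list medians and 19 chromosome medians were compared with the gap that Dixon's test allows. In 24 of the 260 cases (21 genes and 3 lists) 1 library lay apart from the other 5. The test is set to flag about 1 in 20 for independent, normally distributed values. The named genes were chosen from these data and many belong to the lists, so no excess over that rate can be read from this count. YC has 3 libraries and was not tested in this way.

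pBIC 1 was lowest for Sdc1 (0.153 CPM), Orc1 (10.2 CPM) and Stat4 (0.0254 CPM, a STAT factor of IL-12 signalling) and highest for Crisp3 (0.0508 CPM, the only tumour with counts of this secreted protein). Crisp3 rests on 2 counts, and both it and Stat4 lie below 0.0742 CPM, the level of 3 counts in this library. pBIC 3 was lowest for Prdm1 (0.727 CPM) and Slc1a4 (14.8 CPM). It was highest for Pxdc1 (3.64 CPM), the poly(A) binding protein gene Pabpc1 (6090 CPM), Shmt2 (533 CPM) and Sparc (5.99 CPM, a matrix protein).

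pBIC 4 was lowest for Rack1 (1820 CPM) and Rpl11 (1070 CPM), both of the ribosome, for Ndufv2 (73 CPM), Tyms (38.3 CPM) and Unc93b1 (435 CPM, a Toll-like receptor chaperone). It was also lowest in the median of the cytosolic ribosomal proteins (0.25 on the log2 scale against YC) and of the dendritic cell markers (-2.47). pBIC 5 was highest for Ndufa9 (103 CPM) and lowest in the median of the Notch and marginal zone list (-1.27). pBIC 6 was lowest for Mpp3 (0.377 CPM), Cdkn2a (11.7 CPM), Syvn1 (131 CPM, a ligase of protein quality control) and H2-Eb2 (21 CPM), and highest for Mxd3 (9.1 CPM, a MYC antagonist).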

How the results depend on the processing

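Of 195 named genes called, none reversed under any of the 18 alternatives, 194 kept their call with RLE factors, 195 with upper-quartile factors, 194 of 194 with DESeq2, 169 without the filter on low counts, 191 with all 12 libraries, 152 with a term for Xist expression, and 124 to 137 without 1 YC library. DESeq2 called 1600 genes up and 1474 down for pBICh, 1476 and 1282 for pBICl, 1134 and 1007 in both, and 11 and 12 between the marks. With all 12 libraries 1453 genes rose for pBICh, 1237 rose and 1046 fell for pBICl, and 1026 and 842 did so in both. With the Xist term 298 rose and 368 fell for pBICl and 274 and 336 in both. Without both pBIC 1 and pBIC 6, an alternative added after seeing the data, 2409 genes fell in all pBIC, 1703 rose and 1426 fell for pBICh, 1441 and 1253 for pBICl, and 1216 and 987 in both. The cause was not tested.

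Leaving out 1 library at a time gave 429 to 1808 genes up and 653 to 1736 down in pBIC, 30 to 1095 and 85 to 1103 in pBICh, 29 to 887 and 102 to 945 in pBICl, 24 to 708 and 68 to 649 in both, and 0 to 2 and 0 to 0 between the marks. The lowest counts of the first 4 came without YC 2, which leaves 2 controls. The share of calls that were higher was 52.7%, and 41.2% and 39.6% without YC 1 and YC 2. The median of all genes moved from 0.11 to 0.23 with DESeq2.

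Same-numbered libraries showed no common deviation (correlations -0.043, -0.044 and 0.113 for numbers 1, 2 and 3). With so few pairs and no reference pairs, this check cannot exclude that the numbers pair the mice. A replicate block gave 645 genes up and 726 down. pBIC 4, 5 and 6 have no YC library of the same number, so this fit in effect compares pBIC 1 to 3 with YC 1 to 3.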

Other observations

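Of 29 genes of cholesterol and lipid synthesis 3 rose and 7 fell (0 in both pBICh and pBICl, median -0.39), and 0 rose and 1 to 3 fell without 1 YC library. The members called made up 34.5% of this list, against 18.6% of all genes tested. Abca1, a cholesterol exporter, fell from 121, 129 and 133 CPM in YC to 5.46 to 36.4 CPM in pBIC (-2.76 ± 0.59, edgeR adjusted p = 0.0116). Of 23 lysosome genes 1 rose and 4 fell (21.7% called, near the share of all genes, median 0.07), and 0 or 1 of the 4 passed without 1 YC library.

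Among markers of other cells, 0 of 5 tested megakaryocyte genes passed, Gzmb was the member of 8 tested NK cell genes that rose, at 0.121 to 0.257 CPM in YC and 0.504 to 25.8 CPM in pBIC, and Sparc was the member of 5 tested stromal genes that rose. The 9 listed NK cell genes summed to 9.32 to 16.4 CPM in YC and 7.08 to 49.0 CPM in pBIC. The calls of Gzmb (edgeR adjusted p = 0.0325) and Sparc (edgeR adjusted p = 0.0265) were lost when YC 1 or YC 3 was left out (edgeR adjusted p of at most 0.126 and 0.0965), and that of Gzmb also without YC 2. Adgre1, the macrophage gene for F4/80, fell from 28.8, 25.2 and 24.8 CPM to 0.212 to 2.04 CPM (-4.73 ± 0.61, edgeR adjusted p = 0.00146). It was 1 of 2 members of the macrophage and monocyte list that fell, while the list's median log2 fold change was 1.61.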
